A study of Rattus norvegicus with 16 samples.

Results

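The mRNAs of the mitochondrial respiratory chain and ATP synthase were measured in liver samples from males of the inbred rat strain F344. Members were chosen by gene symbol alone. The symbols were those of the Nduf subunits of complex I, the Sdh subunits of complex II, the Uqcr subunits of complex III, numbered Cox subunits of complex IV and Atp5 genes of complex V. Of 13438 genes with a probe set of their own on the Affymetrix RG-230 PM array, 76 matched, of which 33 were counted with complex I, 4 with complex II, 7 with complex III, 16 with complex IV and 16 with complex V. They were covered by 85 probe sets, and a gene with more than 1 was represented by the probe set of highest mean. A further 8 matching probe sets carried several symbols and were not used. Some matching genes are not subunits of the complex they were counted with. Atp5if1 encodes the protein that inhibits ATP hydrolysis by ATP synthase, Cox7a2l an assembly factor of respiratory supercomplexes, and Cox6c-ps1 is a pseudogene, whereas Ndufa4 is a subunit of complex IV by present knowledge. The subunits encoded by mitochondrial DNA, and nuclear subunits with other symbols, were not analysed here as members.

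Each of the 16 rats gave 1 liver sample and 1 array, in 4 groups of 4. Rats entered the study at 4 weeks of age and were reared for 3 weeks. The first group (hydrogen, CDAA diet) ate the CDAA diet (choline-deficient, L-amino acid-defined), was given drinking water holding 0.7 mM hydrogen and was kept in air mixed with 2% hydrogen. The second (control, CDAA diet) ate the same diet, drank dehydrogenized water and lived in plain air. The third (hydrogen, normal diet) received hydrogen in the same way and ate rodent chow, and the fourth (control, normal diet) ate chow with dehydrogenized water and plain air. Both waters contained 0.44 mM Na2SO4. The CDAA diet produces fatty liver in rats and differs from chow in more than choline, since its protein is replaced by free amino acids. The p-values set group differences against the spread between rats within groups. The labels name no littermates or cages, so effects of shared litter or housing could not be checked or told apart from those of the groups.

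The respiratory chain passes electrons from NADH (through complex I) and succinate (through complex II) by way of coenzyme Q to complex III, cytochrome c and complex IV, where oxygen is reduced. Complexes I, III and IV pump protons out of the matrix, and complex V, the ATP synthase, lets them return and makes ATP. Hepatocytes are rich in mitochondria and use this chain to reoxidise the electron carriers reduced during fatty acid oxidation.

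Promoter sequences are shown for 4 members to which the diet results below return. Cox4i1 and Ndufa13 are shown because both promoters carry 2 copies of the same motif and their diet differences had opposite signs. Cox4i1 was called in both diet comparisons and Ndufa13 in hydrogen rats only. Atp5if1 and Ndufb10 are shown because they had the largest rise and the largest fall. All 4 were chosen after their values were seen, and a part of the motif in these changes was not tested. The sequences are those of RefSeq on build GRCr8, 250 bases before to 50 bases after the annotated start, read 5′ to 3′ on the gene's strand. Cox4i1 is at chr19:65630133-65630432, plus strand, Ndufa13 at chr16:19560276-19560575, plus strand, Atp5if1 at chr5:150026628-150026927, minus strand and Ndufb10 at chr10:14255917-14256216, minus strand. Capitals mark CCGGAAG, a core of the sites bound by GABPA (also called NRF-2), on either strand.

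Cox4i1: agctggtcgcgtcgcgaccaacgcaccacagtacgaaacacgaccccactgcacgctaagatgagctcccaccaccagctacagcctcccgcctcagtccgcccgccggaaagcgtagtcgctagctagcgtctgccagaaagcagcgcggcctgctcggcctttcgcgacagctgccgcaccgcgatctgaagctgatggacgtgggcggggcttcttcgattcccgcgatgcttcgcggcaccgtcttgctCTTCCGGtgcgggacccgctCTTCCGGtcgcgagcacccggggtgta
Ndufa13: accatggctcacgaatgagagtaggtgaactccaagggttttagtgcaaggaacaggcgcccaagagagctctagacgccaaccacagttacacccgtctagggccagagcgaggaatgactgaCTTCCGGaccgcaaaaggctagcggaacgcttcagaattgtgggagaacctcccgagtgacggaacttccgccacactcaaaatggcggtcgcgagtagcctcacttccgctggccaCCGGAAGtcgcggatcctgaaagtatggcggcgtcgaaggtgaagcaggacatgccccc
Atp5if1: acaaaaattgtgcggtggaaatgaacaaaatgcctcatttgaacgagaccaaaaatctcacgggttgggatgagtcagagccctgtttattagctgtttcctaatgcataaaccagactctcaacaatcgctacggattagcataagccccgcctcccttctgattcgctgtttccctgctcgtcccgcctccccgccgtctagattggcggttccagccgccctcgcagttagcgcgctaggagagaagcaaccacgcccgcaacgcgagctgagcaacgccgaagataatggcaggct
Ndufb10: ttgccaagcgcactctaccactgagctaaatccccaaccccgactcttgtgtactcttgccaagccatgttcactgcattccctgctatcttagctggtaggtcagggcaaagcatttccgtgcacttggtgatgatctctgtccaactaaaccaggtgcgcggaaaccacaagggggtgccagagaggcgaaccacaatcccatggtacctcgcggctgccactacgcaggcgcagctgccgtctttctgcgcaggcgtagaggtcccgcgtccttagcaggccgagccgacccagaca

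A set of 3 short motifs was searched on both strands in the promoters of the 69 members present in the RefSeq table. The GABPA core CCGGAAG was found in 20 of 69 (29.0%), against 9.22% of all 27457 promoters of the same length. The core of NRF-1 sites, GCGCATGCG, was found in 5 (7.25%), against 1.66% of all promoters. The core AAGATGG of YY1 sites was found in 18 (26.1%), against 7.3% of all. Among the 22 promoters of members higher on the CDAA diet in 1 or both comparisons, 27.3% held the GABPA core, as did 28.6% of the 14 lower and 33.3% of the 30 called in neither. For the YY1 core these shares were 31.8%, 21.4% and 23.3%, and for the NRF-1 core 9.09%, 14.3% and 3.33%, which is at most 2 promoters in each class. In Cox4i1 both copies lie just after the start, beginning at bases 254 and 274 of the sequence, and in Ndufa13 they begin at bases 125 and 242. Atp5if1 and Ndufb10 hold none of these 3 letter strings in the window, which says nothing of whether a factor binds there.

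Of the 76 members, 73 lay above 3.68 log2, the 30th percentile of all values, on all 16 arrays and were tested. They comprised 32 genes counted with complex I, 4 with II, 7 with III, 14 with IV and 16 with V. Cox6a2, the muscle form of subunit 6a, was above the line on 0 arrays, and Cox6b2, described as testis-enriched, on 1 array. Ndufa4l2, a relative of Ndufa4 induced by low oxygen in other systems, was above it on 2 arrays. Among the tested members, the tissue-restricted forms Cox4i2, Cox7a1, Cox7b2 and Cox8b stayed close to the line, with group means between 3.79 and 4.06 log2, so their differences say little. Of 5 skeletal muscle markers on the array, Acta1, Ckm and Mb lay below the line on every array, and Tnnt3 and Actn3 lay above it on all 16, with group means of their average level from 4.28 to 4.42 log2 and no call in either diet comparison. All 7 hepatocyte markers measured were above it, with group means of their average level from 12.76 to 12.8 log2.

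In the livers of rats on the CDAA diet, the complexes moved unequally relative to normal chow. Of the genes that passed the test in hydrogen rats, 10 of 12 in complexes III to V were higher and 13 of 16 in complexes I and II were lower. In control rats all 19 that passed in complexes III to V were higher, and in complexes I and II 4 were higher and 3 lower. The rises include Atp5if1 and Cox7a2l in both comparisons, and the falls in hydrogen rats include Cox6c-ps1 and Ndufa4. None of these is a subunit of the complex it was counted with. Over all genes called, 64.9% were higher in hydrogen rats and 67.2% in control rats. Over tested members of complexes III, IV and V, called rises were 42.9%, 28.6% and 18.8% in hydrogen rats, against 32.1% of all genes tested. In hydrogen rats only complex III of these, with 3 of 7 members, was above the share of all genes. The 14 tested members of complex IV include Cox4i2, Cox7a1, Cox7b2 and Cox8b, close to the line of 3.68 log2, of which none was called. In control rats the called rises in complexes III, IV and V were 71.4%, 35.7% and 56.2%, against 27.3%. Called falls in complexes I and II were 34.4% and 50.0% in hydrogen rats, against 17.3%, and 6.25% and 25.0% in control rats, against 13.3%. With each array centred on the median of its tested probe sets, an alternative chosen after seeing the data, complexes III to V had 2 higher and 9 lower in hydrogen rats and 8 higher and 2 lower in control rats. Complexes I and II then had 0 higher and 19 lower in hydrogen rats and 1 higher and 11 lower in control rats. Over all genes called, 43.2% were then higher in hydrogen rats and 51.2% in control rats. The direction of the calls in complexes III to V thus depended on this scaling in hydrogen rats. Under 2 planned scalings these complexes had 10 higher and 2 lower in hydrogen rats (array medians centred) and 15 higher and 2 lower (quantile normalization repeated). A difference between complexes within an array does not depend on how arrays were centred, and it is given next. Taking for each complex the median over its members of the difference from the control normal-diet mean, complex III minus complex I was 0.135 to 0.206 log2 on the hydrogen CDAA arrays, against -0.031 to 0.006 on the hydrogen normal-diet arrays. In control rats it was 0.113 to 0.203 on the CDAA diet, against -0.018 to 0.013 on normal chow. Complex V minus complex I was 0.104 to 0.177 on the hydrogen CDAA arrays, against -0.013 to 0.023 on the hydrogen normal-diet arrays, and 0.093 to 0.183 in control CDAA rats, against -0.016 to 0.023 in control rats on chow. In each pair the CDAA and normal-diet arrays did not overlap. These are descriptions without a test, since the members were chosen with results known.

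**Figure D1:**
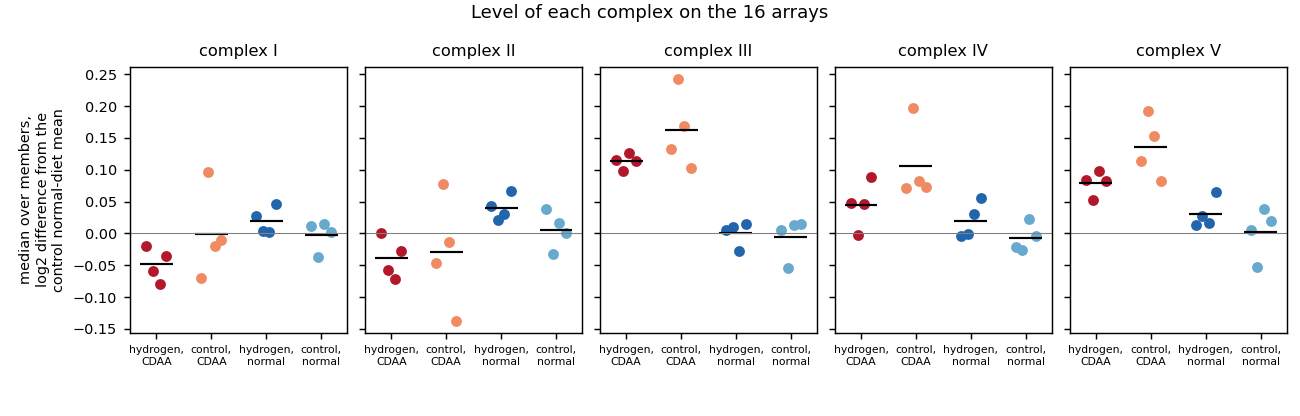
Median over the tested members of each complex of the log2 difference from the control normal-diet mean, on each array (points) with the group mean (line), for hydrogen CDAA, control CDAA, hydrogen normal-diet and control normal-diet rats. Complex III lies at 0.098 to 0.127 (hydrogen) and 0.103 to 0.243 (control) on CDAA arrays, above every normal-diet array, whereas complex I overlaps between the control groups and lies lower on CDAA than on normal-diet arrays under hydrogen.

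Across all members, limma's moderated test with Benjamini-Hochberg adjustment over 22634 probe sets called a gene at an adjusted p under 0.05. In hydrogen rats on the CDAA diet, 13 of 73 members (17.8%) were higher than in hydrogen rats on chow and 15 (20.5%) were lower. Of the 11434 named genes tested, 32.1% were called higher and 17.3% lower in the same comparison, so the share of rises was below the background and that of falls just above it. In control rats on the CDAA diet, 23 members (31.5%) were higher than in control rats on chow and 3 (4.11%) were lower. The background was 27.3% higher and 13.3% lower, so the share of rises was near the background and that of falls below it. These differences in share were not tested. The median member changed by 0.005 log2 in hydrogen rats and 0.06 in control rats, against 0.052 and 0.04 over all genes tested. The changes were small, with 1 member over 2-fold in hydrogen rats and 0 in control rats.

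The totals depended on the same scaling. With tested probe sets centred, the counts became 2 higher and 28 lower in hydrogen rats and 9 higher and 13 lower in control rats. The background moved with them, to 23.9% higher and 31.4% lower of all genes tested in hydrogen rats and 21.5% higher and 20.5% lower in control rats, against which the members had 2.74% and 38.4% in hydrogen rats and 12.3% and 17.8% in control rats. That centring moved every log2 difference down by 0.1 in hydrogen rats and by 0.065 in control rats, which is as large as many of the changes. The difference between complexes above is not touched by it. The counts of rises also rested on single arrays. In hydrogen rats the count was 7 without hydrogen normal-diet replicate 3. In control rats it was 12 without control normal-diet replicate 2, 15 without control CDAA replicate 2 and 15 without control CDAA replicate 3. Control normal-diet replicate 4 stood apart on the first principal component, at -13.44 against -35.09 to -32.28 for the other arrays of its group. Without it, 19 members were higher and 3 lower in control rats.

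Hydrogen and control rats gave separate arrays for the diet comparison. The log2 difference had the same sign in both for 58 of 73 members, with 12 members called higher in both and 3 called lower in both, and 0 called in opposite directions. The 12 shared rises were 92.3% of those in hydrogen rats and 52.2% of those in control rats, and the 3 shared falls were 20% of those in hydrogen rats and 100% of those in control rats. Across the 73 members the differences of both comparisons had a Pearson r of 0.93, and 0.921 without Atp5if1, as a description over genes that share arrays. The same counts were not taken over all genes tested. This agreement is therefore not shown to be particular to the members. Whether the diet effect differed between hydrogen and control rats was tested as an interaction and called for 0 members (below).

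**Figure D2:**
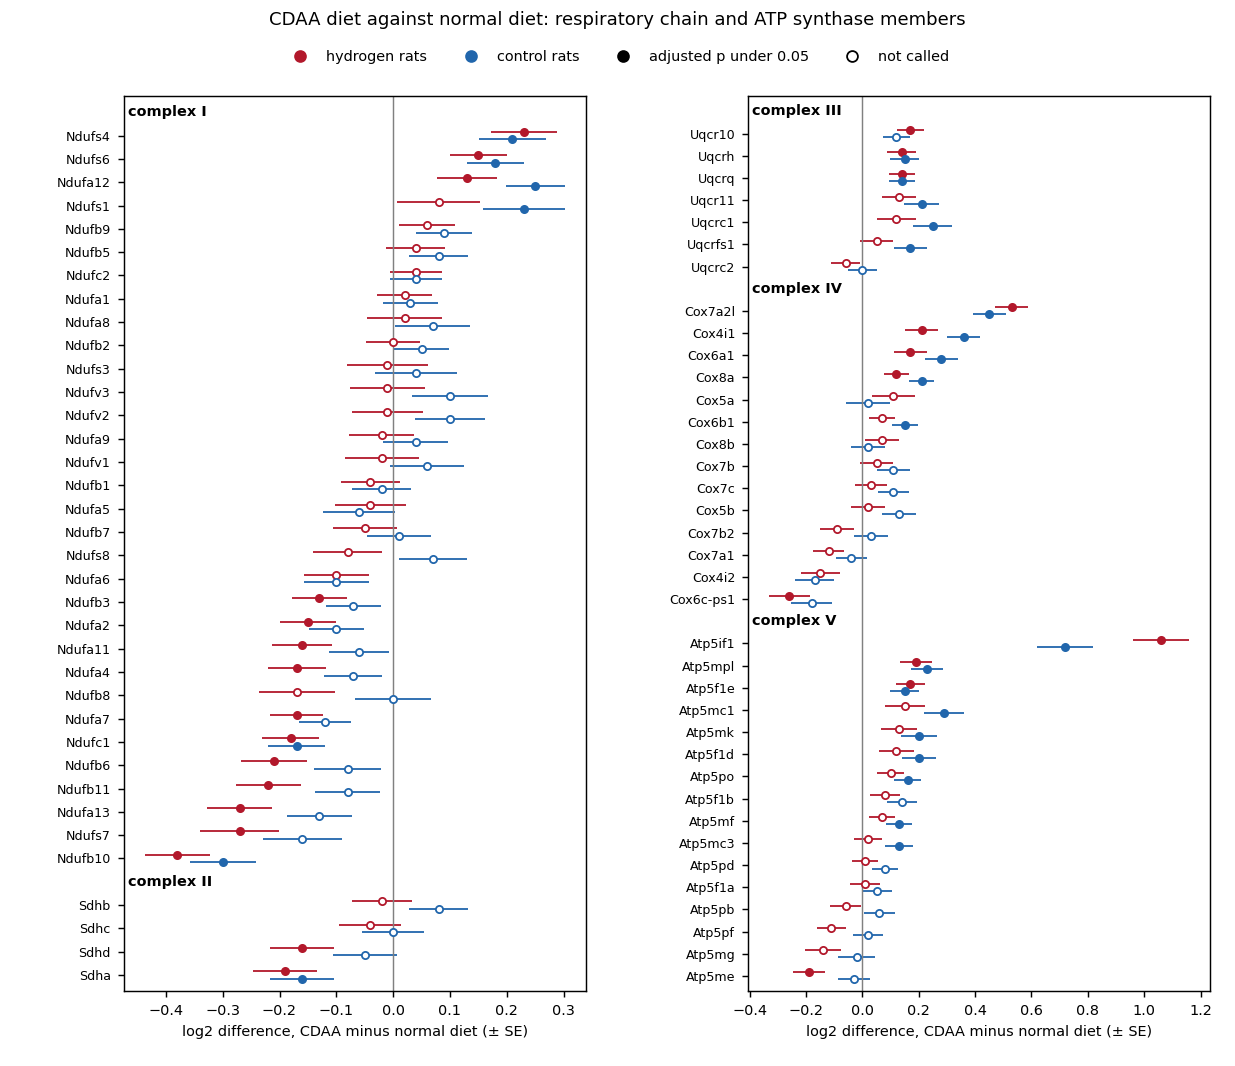
Log2 difference, CDAA minus normal diet, with its standard error for the 73 tested members by complex, in hydrogen rats (red) and control rats (blue). Filled points passed an adjusted p of 0.05. Complexes III to V lie mostly right of 0 and complex I reaches from -0.38 to 0.23 in hydrogen rats. Centring arrays on their tested probe sets would move all red points to the left by 0.1 and all blue points by 0.065.

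Complex I, NADH dehydrogenase, held members that went both ways. In hydrogen rats 3 of its 32 tested members (9.38%, against 32.1% of all genes) were higher on the CDAA diet and 11 (34.4%, against 17.3%) lower. The median was -0.042 log2. In control rats 4 (12.5%, against 27.3%) were higher and 2 (6.25%, against 13.3%) lower. The median there was 0.021, which turned to -0.044 with tested probe sets centred and to -0.03 without control CDAA replicate 2. With tested probe sets centred 0 were higher and 16 lower in hydrogen rats, and 1 was higher and 10 lower in control rats. The largest fall was that of Ndufb10, an accessory subunit of the membrane arm. Its signal was 9.53, 9.42, 9.42 and 9.30 log2 in hydrogen CDAA rats, against 9.80, 9.79, 9.81 and 9.79 in hydrogen rats on chow. On the control arrays it was 9.40, 9.51, 9.44 and 9.40 on the CDAA diet, against 9.75, 9.63, 9.84 and 9.73 on chow. The CDAA values lay below all normal-diet values in both pairs, with differences of -0.38 ± 0.0577 log2 (SE, adjusted p = 8.41e-05) in hydrogen rats and -0.30 ± 0.0577 (adjusted p = 0.000837) in control rats.

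Ndufa13, an accessory subunit also known as GRIM-19, was 9.45, 9.41, 9.34 and 9.31 log2 in hydrogen CDAA rats, against 9.76, 9.65, 9.55 and 9.63 in hydrogen rats on chow. The groups did not overlap, and the difference was -0.27 log2 (adjusted p = 0.00128). In control rats the difference was -0.13 and did not pass (adjusted p = 0.0942), although the CDAA values of 9.39 to 9.52 lay below the normal-diet values of 9.56 to 9.68. Ndufs7, a catalytic core subunit of the peripheral arm that carries an iron-sulfur cluster, differed by -0.27 in hydrogen rats (adjusted p = 0.0048) and by -0.16 in control rats (adjusted p = 0.089). Ndufc1, a small accessory subunit, was lower in both, with differences of -0.18 log2 in hydrogen rats (adjusted p = 0.0101) and -0.17 in control rats (adjusted p = 0.0135). The remaining falls in hydrogen rats were those of Ndufb11 (-0.22 log2), Ndufb6 (-0.21), Ndufa4 (-0.17), Ndufa7 (-0.17), Ndufa11 (-0.16), Ndufa2 (-0.15) and Ndufb3 (-0.13), of which none passed in control rats, where they ranged from -0.12 to -0.06. They are listed to account for every call.

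The complex I members that rose in both comparisons were Ndufs4, Ndufs6 and Ndufa12. Ndufs4, which is needed for stable assembly of the peripheral arm, where NADH is oxidised, was 8.35, 8.48, 8.56 and 8.46 log2 in hydrogen CDAA rats, against 8.29, 8.16, 8.17 and 8.29 in hydrogen rats on chow. In control rats it was 8.48, 8.55, 8.50 and 8.44 on the CDAA diet, against 8.31, 8.27, 8.19 and 8.36 on chow. The CDAA arrays lay above the normal-diet arrays in both pairs, and the differences were 0.23 log2 (adjusted p = 0.00418) and 0.21 (adjusted p = 0.0105). Ndufs6, an accessory subunit that binds zinc, was higher by 0.15 in hydrogen rats (adjusted p = 0.0201) and by 0.18 in control rats (adjusted p = 0.0127). Ndufa12, an accessory subunit of the same arm, was higher by 0.13 (adjusted p = 0.0454) and 0.25 (adjusted p = 0.00142). Of the catalytic core, Ndufs1 was 9.58, 9.71, 9.54 and 9.63 in control CDAA rats, against 9.42, 9.31, 9.29 and 9.51 in control rats on chow, a difference of 0.23 (adjusted p = 0.0198). In hydrogen rats it differed by 0.08 and did not pass (adjusted p = 0.367). Besides Ndufs7 and Ndufs1, the core subunits Ndufs3, Ndufs8, Ndufv1 and Ndufv2 were measured and passed in neither comparison, with differences between -0.08 and 0.10.

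Complex II, succinate dehydrogenase, had 4 members, of which 0 were higher in either comparison. Falls were called for 2 (50.0%, against 17.3% of all genes) in hydrogen rats and for 1 (25.0%, against 13.3%) in control rats. Sdha, the flavoprotein that oxidises succinate, was 10.40, 10.11, 10.22 and 10.21 log2 in hydrogen CDAA rats, against 10.37, 10.42, 10.43 and 10.46 in hydrogen rats on chow. Replicate 1 of the CDAA rats lay within the range of the others, so these groups overlapped by 1 array. In control rats Sdha was 10.24, 10.27, 10.22 and 10.24 on the CDAA diet, against 10.35, 10.43, 10.42 and 10.40 on chow, without overlap. The differences were -0.19 (adjusted p = 0.0147) and -0.16 (adjusted p = 0.04). Sdhd, a membrane anchor, was lower in hydrogen rats, with a difference of -0.16 log2 (adjusted p = 0.0277), or -0.31 by its second probe set (adjusted p = 0.00184). In control rats neither passed. Sdhb, the iron-sulfur subunit, differed by -0.02 in hydrogen rats and 0.08 in control rats, and Sdhc, the other anchor, by -0.04 and 0.00, and neither passed. The median of the complex was -0.101 in hydrogen rats and -0.026 in control rats, and this second value turned to 0.032 under a repeated quantile normalization.

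Complex III is the cytochrome bc1 complex. In hydrogen rats 3 of 7 members (42.9%, against 32.1% of all genes) were higher on the CDAA diet and 0 lower (median 0.132 log2). In control rats 5 (71.4%, against 27.3%) were higher and 0 lower (median 0.148). The median stayed above 0 under each of the 25 alternatives tried, but with tested probe sets centred the counts turned to 0 higher and 1 lower in hydrogen rats and 1 higher and 0 lower in control rats. Uqcrq, a small subunit near the coenzyme Q site, was 11.76, 11.74, 11.81 and 11.83 in hydrogen CDAA rats, against 11.61, 11.70, 11.61 and 11.68 in hydrogen rats on chow. On the control arrays it was 11.84, 11.81, 11.80 and 11.81 on the CDAA diet, against 11.66, 11.65, 11.67 and 11.71 on chow. The groups were separate in both pairs and the difference was 0.14 in each (adjusted p = 0.0227 and 0.0211). Uqcrh, the hinge protein between cytochromes c and c1, was higher by 0.14 (adjusted p = 0.0373) and 0.15 (adjusted p = 0.0356). Uqcr10 was higher in hydrogen rats, by 0.17 (adjusted p = 0.0116), and differed by 0.12 in control rats (adjusted p = 0.0648). Uqcrc1, a large core subunit on the matrix side, was higher in control rats by 0.25 (adjusted p = 0.00939), Uqcr11 by 0.21 (adjusted p = 0.0166) and Uqcrfs1, the Rieske iron-sulfur protein, by 0.17 (adjusted p = 0.0303), and in hydrogen rats they differed by 0.12, 0.13 and 0.05 without passing. Uqcrc2, the other core subunit, differed by -0.06 in hydrogen rats and 0.00 in control rats. Cyc1, cytochrome c1 of the same complex, falls outside the symbol rule and was higher by 0.15 (adjusted p = 0.0421) in hydrogen rats and by 0.25 (adjusted p = 0.00279) in control rats.

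Complex IV is cytochrome c oxidase. In hydrogen rats 4 of 14 tested members (28.6%, against 32.1% of all genes) were higher on the CDAA diet and 1 lower, and in control rats 5 (35.7%, against 27.3%) were higher and 0 lower, with medians of 0.059 and 0.113 log2. Cox4i2, Cox7a1, Cox7b2 and Cox8b, close to the filter line, are among the 14, and none of them was called. Centring on tested probe sets turned the median in hydrogen rats to -0.041 and the counts to 1 higher and 4 lower. The counts in control rats turned to 4 higher and 2 lower. Cox7a2l, the supercomplex factor, had the largest change of the group. Its signal was 9.67, 9.81, 9.84 and 9.59 in hydrogen CDAA rats, against 9.20, 9.18, 9.20 and 9.21 in hydrogen rats on chow. In control rats it was 9.68, 9.69, 9.81 and 9.71 on the CDAA diet, against 9.23, 9.23, 9.27 and 9.35 on chow. All CDAA arrays were above all normal-diet arrays, and Cox7a2l was 1.44-fold higher in hydrogen rats (0.53 ± 0.0592 log2, SE, adjusted p = 5.77e-06) and 1.37-fold higher in control rats (0.45 ± 0.0592, adjusted p = 4e-05). Both calls held under all 25 alternatives.

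Cox4i1, the common form of a subunit that regulates the enzyme's response to ATP, was 10.75, 10.64, 10.68 and 10.63 log2 in hydrogen CDAA rats, against 10.53, 10.39, 10.45 and 10.51 in hydrogen rats on chow. On the control arrays it was 10.69, 10.89, 10.78 and 10.69 on the CDAA diet, against 10.36, 10.35, 10.40 and 10.49 on chow. The groups did not overlap in either pair, with differences of 0.21 (adjusted p = 0.00992) and 0.36 (adjusted p = 0.000211). Its lung-type relative Cox4i2 differed by -0.15 in hydrogen rats and -0.17 in control rats near the filter line, and neither passed. Cox6a1, the liver form of subunit 6a, was higher by 0.17 (adjusted p = 0.0279) in hydrogen rats and by 0.28 (adjusted p = 0.00129) in control rats. Cox8a, the ubiquitous form of subunit 8, was higher by 0.12 (adjusted p = 0.0376) and 0.21 (adjusted p = 0.00153). Cox6b1 was higher in control rats, by 0.15 (adjusted p = 0.0228), and differed by 0.07 in hydrogen rats. The 1 fall was that of the pseudogene Cox6c-ps1, with -0.26 log2 in hydrogen rats (adjusted p = 0.00841), and a probe set of a pseudogene can also detect its parent gene. Cox5a and Cox7b passed in neither comparison, with differences of 0.02 to 0.11.

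Complex V held the largest change of all members. Atp5if1, the inhibitor of ATP synthase, was 8.39, 8.59, 8.71 and 8.29 log2 in hydrogen CDAA rats, against 7.54, 7.29, 7.45 and 7.44 in hydrogen rats on chow. In control rats it was 8.26, 8.18, 8.42 and 8.31 on the CDAA diet, against 7.61, 7.31, 7.61 and 7.74 on chow. Every CDAA array lay above every normal-diet array. Atp5if1 was 2.09-fold higher in hydrogen rats (1.06 ± 0.1 log2, SE, adjusted p = 1.4e-06) and 1.65-fold higher in control rats (0.72 ± 0.1, adjusted p = 5.83e-05), and both calls held under all 25 alternatives. Its other probe sets gave smaller differences. One was higher by 0.567 log2 in hydrogen rats (adjusted p = 1.45e-05) and differed by 0.18 in control rats (adjusted p = 0.0575). The other differed by 0.133 and 0.205 and passed in neither. With the mean of the 3 probe sets the differences were 0.59 in hydrogen rats and 0.37 in control rats.

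Of the 16 members counted with complex V, 3 (18.8%, against 32.1% of all genes) were higher and 1 (6.25%, against 17.3%) lower in hydrogen rats. In control rats 9 (56.2%, against 27.3%) were higher and 0 (against 13.3%) lower. The medians were 0.075 and 0.135 log2, the first turning to -0.025 with tested probe sets centred. The counts then were 1 higher and 4 lower in hydrogen rats and 3 higher and 0 lower in control rats. Atp5f1a and Atp5f1b, the alpha and beta subunits of the catalytic head, differed by 0.01 and 0.08 in hydrogen rats and by 0.05 and 0.14 in control rats, and none of these passed. Atp5f1e, the epsilon subunit, was higher by 0.17 (adjusted p = 0.0139) in hydrogen rats and by 0.15 (adjusted p = 0.0351) in control rats, and Atp5f1d, the delta subunit, was higher by 0.20 in control rats (adjusted p = 0.0171) and differed by 0.12 in hydrogen rats (adjusted p = 0.137). Of the proton-carrying c ring, Atp5mc1 was 10.80, 11.08, 11.10 and 11.06 in control CDAA rats, against 10.79, 10.61, 10.70 and 10.79 in control rats on chow. These groups did not overlap, though CDAA replicate 1 lay just above chow replicates 1 and 4, and the difference was 0.29 (adjusted p = 0.00488). In hydrogen rats Atp5mc1 differed by 0.15 (adjusted p = 0.0908). Atp5mc3, which encodes the same mature c subunit, was higher by 0.13 in control rats (adjusted p = 0.0444) and differed by 0.02 in hydrogen rats.

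The small membrane subunit gene Atp5mpl was higher by 0.19 (adjusted p = 0.013) in hydrogen rats and by 0.23 (adjusted p = 0.00483) in control rats. Atp5me, subunit e, which takes part in the pairing of ATP synthases, was 9.51, 9.58, 9.71 and 9.73 in hydrogen CDAA rats, against 9.75, 9.83, 9.87 and 9.86 in hydrogen rats on chow. These groups did not overlap, and the difference was -0.19 (adjusted p = 0.0124). In control rats it was -0.03 (adjusted p = 0.697). The other rises in control rats were those of Atp5mk (0.20), Atp5po (0.16) and Atp5mf (0.13), none of which passed in hydrogen rats, and they are listed to account for every call.

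**Figure D3:**
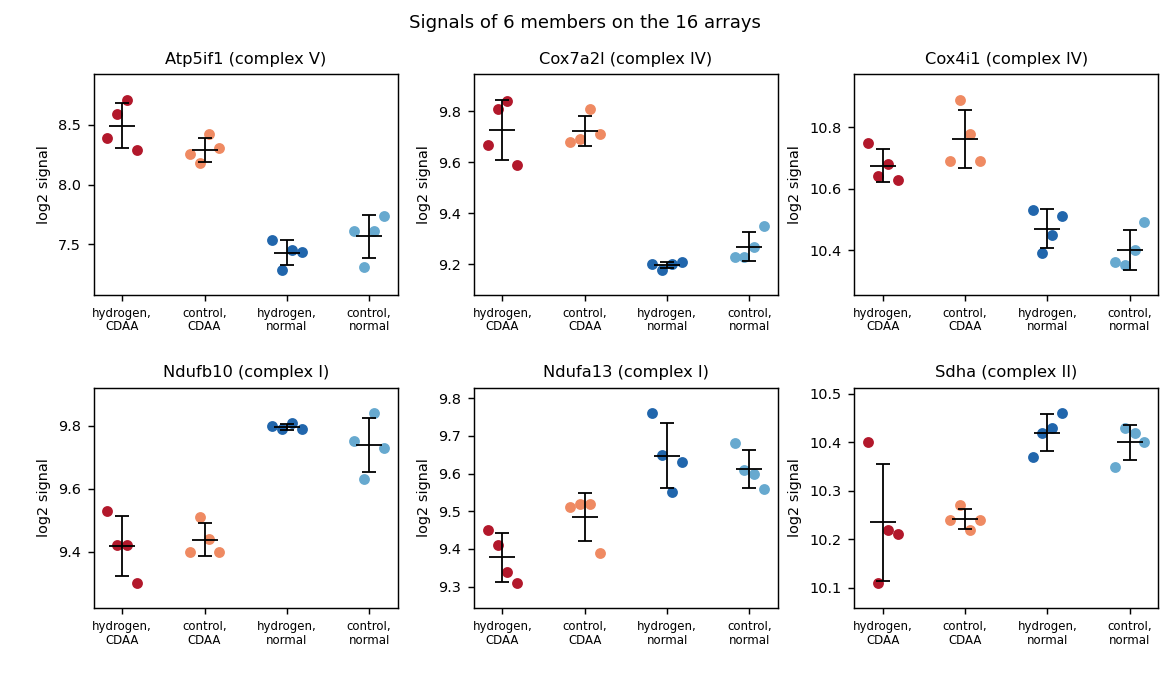
Log2 signals of 6 members on each array (points) with the group mean and SD (bars) for hydrogen CDAA, control CDAA, hydrogen normal-diet and control normal-diet rats. Atp5if1, Cox7a2l and Cox4i1 are higher on all CDAA arrays, Ndufb10 and Ndufa13 are lower on all CDAA arrays within each pair, and 1 hydrogen CDAA array overlaps the normal-diet range for Sdha.

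No member passed the same test for hydrogen on either diet. On the CDAA diet 0 of 73 members were called between hydrogen and control rats, against 0.376% of all genes tested, and 2 had an unadjusted p under 0.05. On the normal diet 0 were called, against 0.00875% of all genes (1 gene), and 1 member had an unadjusted p under 0.05. Each of the 25 alternatives also called 0 members in both comparisons. The smallest adjusted p was 0.292 on the CDAA diet, for Ndufa12. Its signal was 10.00, 9.95, 10.03 and 9.98 log2 in hydrogen CDAA rats, against 10.11, 10.18, 10.17 and 10.07 in control CDAA rats, without overlap and with a difference of -0.14. The next was Cox7a1, close to the filter line, with -0.12 (adjusted p = 0.405). On the normal diet the smallest adjusted p was 0.639, for Cox5a, a matrix-facing subunit of complex IV. Cox5a was 7.39, 7.30, 7.53 and 7.61 in hydrogen rats on chow, against 7.60, 7.54, 7.69 and 7.72 in control rats on chow, and the groups overlapped, with a difference of -0.18.

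On the CDAA diet the estimates ranged from -0.14 to 0.20 log2, the highest being Atp5if1 (adjusted p = 0.457), and the 95% interval lay within 0.3 log2 of 0 for 72 of 73 members. On the normal diet the estimates ranged from -0.18 to 0.12, and the interval lay within 0.3 for 71 of 73. On the CDAA diet 64 of 73 estimates were below 0 (median -0.04, against 0.008 over all genes tested), and on the normal diet 52 were above 0 (median 0.02, against -0.005). Members share arrays, so these counts are no independent trials, and 1 control CDAA array, replicate 2, was high for all complexes, with a median over members of 0.143 log2 above the control normal-diet mean, against 0.005 to 0.053 for the other arrays of its group.

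The interaction, the hydrogen effect on the CDAA diet minus that on the normal diet, was called for 0 of 73 members and for 0.0% of all genes tested. By limma 1 member had an unadjusted p under 0.05, which was Atp5if1 with 0.34 ± 0.141 log2 (SE, adjusted p = 0.503) and a 95% interval from 0.04 to 0.64. Atp5me was next with -0.16 (adjusted p = 0.569). Estimates ranged from -0.17 to 0.34, with 62 of 73 below 0. The higher count of falls in hydrogen rats and of rises in control rats is therefore not shown to differ gene by gene.

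**Figure D4:**
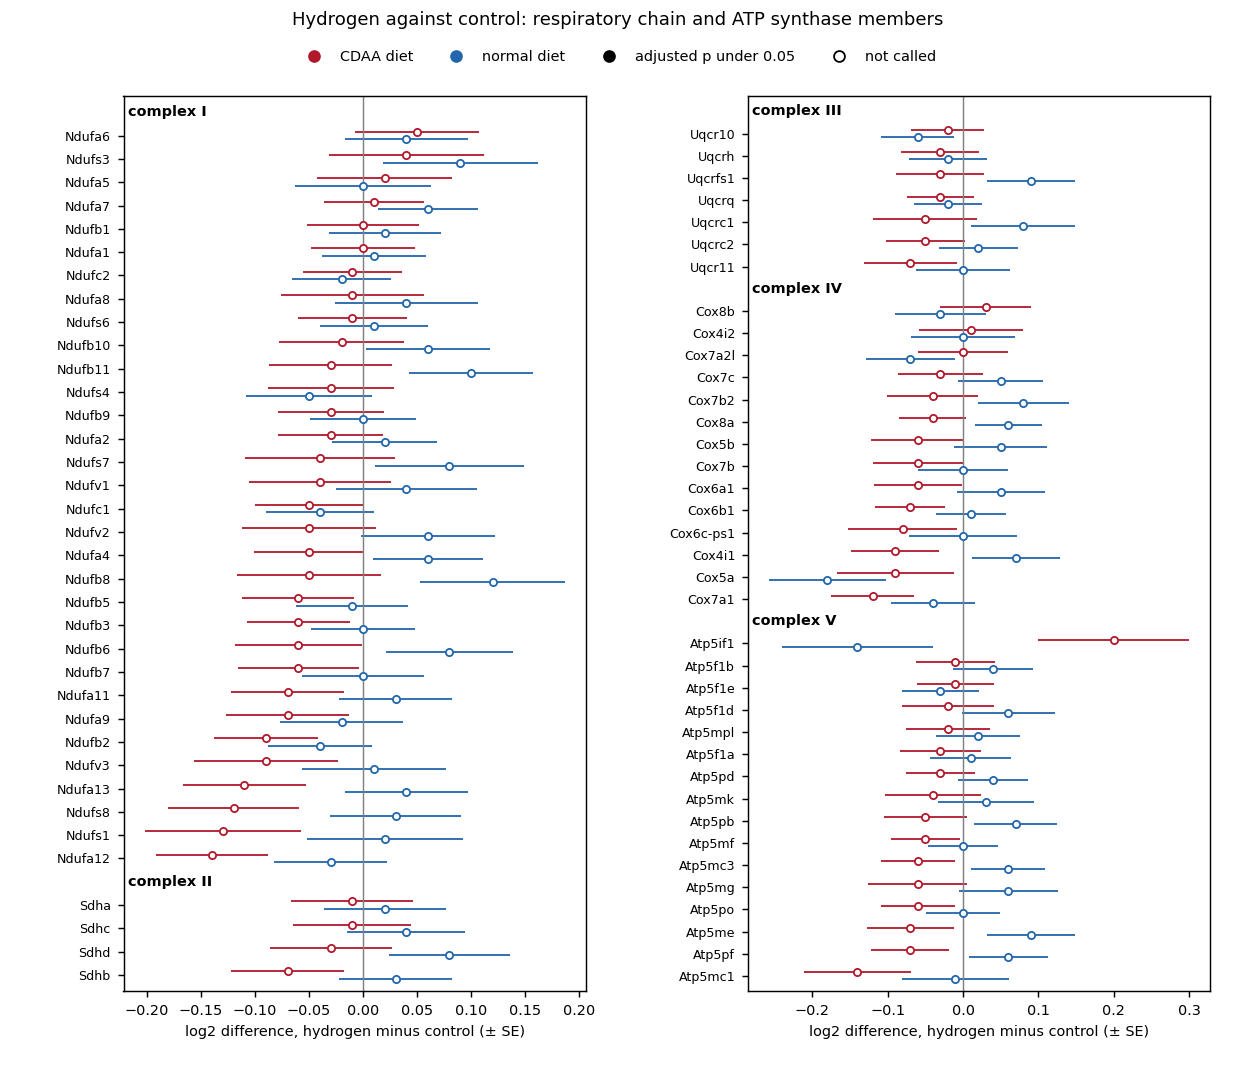
Log2 difference, hydrogen minus control, with its standard error for the 73 tested members by complex, on the CDAA diet (red) and on the normal diet (blue). All points are open, since none passed an adjusted p of 0.05, and most red points lie left of 0 (64 of 73).

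Genes that build, feed and regulate the chain were followed as lists that exclude the members, and their shares are read against 32.1% higher and 17.3% lower of all genes in hydrogen rats and 27.3% higher and 13.3% lower in control rats. Of 42 tested assembly factors, 13 (31.0%) were higher and 4 lower on the CDAA diet in hydrogen rats, and 8 (19.0%) were higher and 3 lower in control rats, so neither share of rises was above the background. The medians of 0.079 in hydrogen rats and 0.065 in control rats turned to -0.021 and 0.00 with tested probe sets centred (7 higher and 7 lower, and 7 higher and 6 lower) and to -0.023 and -0.029 with quantile normalization repeated (6 higher and 8 lower, and 6 higher and 6 lower). Ndufaf4, an assembly factor of complex I, was higher by 0.84 in hydrogen rats (adjusted p = 0.000667) and by 1.02 in control rats (adjusted p = 0.000202). Sdhaf1, which helps load iron-sulfur clusters into complex II, was higher by 0.83 (adjusted p = 3.28e-06) and 0.70 (adjusted p = 2.7e-05). Coa3, an assembly factor of complex IV, was higher by 0.70 and 0.71, and Coa5, another, by 0.47 and 0.35.

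Carriers around the chain moved both ways. Of 12 tested, 5 (41.7%) were higher and 4 (33.3%) lower in each diet comparison. Slc25a4, the adenine nucleotide translocator that exports ATP, was higher by 0.87 in hydrogen rats (adjusted p = 0.000482) and by 0.84 in control rats (adjusted p = 0.000857), and Slc25a3, the phosphate carrier that supplies ATP synthase, by 0.37 (adjusted p = 0.000517) and 0.46 (adjusted p = 0.000132). Sqor, which passes electrons from sulfide to coenzyme Q, was lower, with differences of -0.96 in hydrogen rats (adjusted p = 1.23e-06) and -0.93 in control rats (adjusted p = 4.68e-06), and Etfdh, which passes electrons from fatty acid oxidation to coenzyme Q, was lower too, with differences of -0.36 (adjusted p = 0.00135) and -0.35 (adjusted p = 0.00224). Of 12 genes of coenzyme Q synthesis and handling, 3 (25.0%) were lower in each comparison, namely Coq10a (-0.77 in hydrogen rats and -0.83 in control rats), Coq8a (-0.72 and -0.82) and Coq3 (-0.14 and -0.25), while 1 was higher in hydrogen rats and 0 in control rats.

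Of 16 genes of the citric acid cycle and pyruvate dehydrogenase, which supply NADH, 9 (56.2%) were higher and 1 lower in hydrogen rats and 8 (50.0%) higher and 2 lower in control rats, with medians of 0.179 and 0.188 log2. With tested probe sets centred 4 were higher and 2 lower in hydrogen rats, and 6 higher and 2 lower in control rats. Idh2 was higher by 0.59 (adjusted p = 2.44e-05) in hydrogen rats and by 0.41 (adjusted p = 0.000718) in control rats, and Mdh2 by 0.29 and 0.38. Of 73 mitochondrial ribosomal protein genes, 31 (42.5%) were higher and 2 lower in hydrogen rats and 30 (41.1%) higher and 2 lower in control rats (medians 0.142 and 0.143). With tested probe sets centred 15 were higher and 6 lower in hydrogen rats, and 22 higher and 5 lower in control rats. With quantile normalization repeated 15 were higher and 7 lower in hydrogen rats, and 21 higher and 5 lower in control rats. Of 37 cytosolic ribosomal protein genes, 36 and 35 were higher and 0 lower (medians 0.602 and 0.558). The medians of these 3 lists stayed above 0 under each scaling tried.

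Of 17 tested regulators of mitochondrial gene expression, 9 (52.9%) were higher and 3 (17.6%) lower in hydrogen rats and 4 (23.5%) higher and 3 (17.6%) lower in control rats. The estimate was above 0 for 12 of 17 in each comparison, and the medians of 0.205 in hydrogen rats and 0.145 in control rats stayed above 0 under each scaling tried. With tested probe sets centred 2 were higher and 3 lower in hydrogen rats and 3 higher and 3 lower in control rats. Pprc1, a relative of PGC-1α induced by growth signals, was higher by 1.09 (adjusted p = 0.00143) and 1.11 (adjusted p = 0.00158), and Tfb1m, which methylates mitochondrial ribosomal RNA, by 0.26 and 0.44. Ppargc1b, the coactivator PGC-1β, was lower, with differences of -0.32 (adjusted p = 0.00583) in hydrogen rats and -0.56 (adjusted p = 0.000107) in control rats. Its group means on the CDAA diet, 4.04 log2 in hydrogen rats and 4.11 in control rats, lay close to the filter line. On chow they were 4.36 and 4.68. Polrmt, the mitochondrial RNA polymerase, was lower too, with -0.27 (adjusted p = 0.041) and -0.35 (adjusted p = 0.0133). Esrra, a nuclear receptor that drives these genes, was higher in hydrogen rats by 0.30 (adjusted p = 0.0138) and differed by 0.17 in control rats (adjusted p = 0.141). The other rises in hydrogen rats were those of Sirt3 (0.43), Gabpb1 (0.40), Hif1a (0.28), Ssbp1 (0.26), Yy1 (0.23) and Tfb2m (0.20), and in control rats those of Gabpb1 (0.44) and Tfb2m (0.22). Polg was the remaining fall, with -0.27 in hydrogen rats and -0.26 in control rats. These 7 are listed to account for every call. Gabpa, whose motif is printed above, differed by 0.00 in both (adjusted p = 0.961 and 0.982), and Tfam, the packaging factor of mitochondrial DNA, by 0.05 in both without passing. Ppargc1a and Nrf1 were above the filter line on 3 and 0 arrays and were not tested. For hydrogen, limma called 0 genes of these 7 lists on either diet, with 1 to 5 genes per list at an unadjusted p under 0.05 on the CDAA diet and 1 to 3 on the normal diet.

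**Figure D5:**
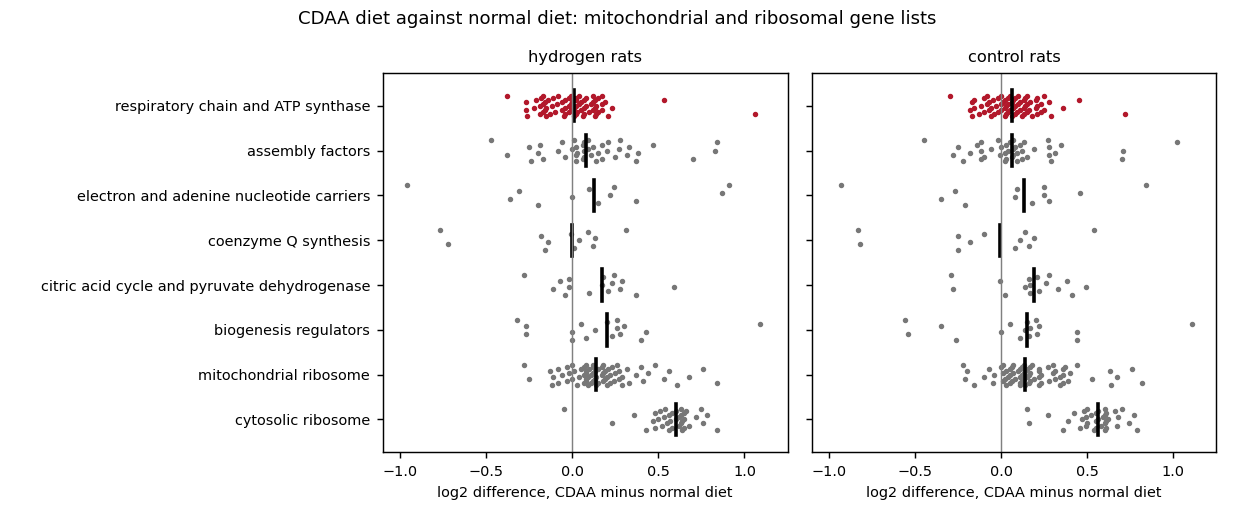
Log2 difference, CDAA minus normal diet, for each tested gene (points) with the list median (black bar), in hydrogen rats (left) and control rats (right). Members of the respiratory chain and ATP synthase (red) have medians of 0.005 and 0.06, below those of the mitochondrial ribosome (0.142 and 0.143) and cytosolic ribosome (0.602 and 0.558).

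Markers of several other cell types differed with the diet. Of all genes tested, 32.1% were called higher and 17.3% lower in hydrogen rats, and 27.3% higher and 13.3% lower in control rats. Beside these shares, counts over 5 or fewer markers say little. Of 8 stellate cell markers, 7 were higher in hydrogen rats and 5 in control rats. Their average level was 6.90 to 7.11 log2 in hydrogen CDAA rats, against 6.29 to 6.41 in hydrogen rats on chow, and 6.72 to 7.03 in control CDAA rats, against 6.30 to 6.67 in control rats on chow. Of 8 macrophage markers, 6 were higher and 0 lower in hydrogen rats, and 4 were higher and 1 lower in control rats. Their average was 8.21 to 8.65 in hydrogen CDAA rats, against 7.78 to 7.96 on chow, and 8.12 to 8.37 in control CDAA rats, against 7.61 to 8.19 on chow. Of 5 tested bile duct markers 3 were higher in each comparison, while Sox9 was below the line on every array, and of 5 endothelial markers 3 were higher in hydrogen rats and 2 in control rats. Of 5 tested lymphocyte markers 1 was higher and 1 lower in each comparison, and of 3 adipocyte markers 0 were called. Both tested erythroid markers, Alas2 and Slc4a1, were lower in control rats and 1 in hydrogen rats, with an average of 3.77 to 4.31 in hydrogen CDAA rats, against 4.29 to 4.56 in hydrogen rats on chow, and 3.78 to 3.98 in control CDAA rats, against 4.35 to 4.78 in control rats on chow. Of the 7 hepatocyte markers, 1 was higher and 1 lower in hydrogen rats, and 1 was higher and 2 lower in control rats. In whole liver, fewer cells of a type and less RNA per cell cannot be told apart, and the part of these shifts in the members' changes was not tested. RNA quality, read as the 3′ minus 5′ signal of control probe sets, differed with the diet for GAPDH in hydrogen rats, at 0.30 to 0.46 log2 in hydrogen CDAA rats, against 0.16 to 0.23 in hydrogen rats on chow, and overlapped in control rats, at 0.26 to 0.39 on the CDAA diet, against 0.20 to 0.45 on chow. For beta-actin it was 2.82 to 3.40 in hydrogen CDAA rats, against 2.65 to 3.15 in hydrogen rats on chow. In control rats it was 3.22 to 3.56 on the CDAA diet, against 2.87 to 3.26 on chow. For Hexokinase the diets overlapped, at 0.63 to 0.85 in hydrogen CDAA rats, against 0.70 to 0.77 in hydrogen rats on chow. In control rats Hexokinase gave 0.64 to 0.80 on the CDAA diet, against 0.61 to 0.89 on chow. The part of RNA quality in the members' changes was not tested. The labels give no strip or scan date, so no batch could be checked.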

How the data were processed

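Liver RNA of 16 rats was measured on Affymetrix RG-230 PM arrays. Per the submitters' processing notes, the authors ran RMA in Expression Console. The version of neither is given in the sources used here. They deposited log2 values, 1 per probe set and array. RMA subtracts background, gives the probe signals of every array the same distribution and then summarises probes into probe sets. A shift of all transcripts in a group would therefore not show. The summarised values need not share a distribution, and their array medians ran from 4.33 to 4.37 log2.

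All computations started from the deposited log2 values. Of 31139 probe sets, 97 array controls were left out. Testing was limited to the 22634 probe sets above 3.68 log2, the 30th percentile of the values, on 4 or more arrays. Gene names came from the platform annotation, which gave 1 symbol to 19069 probe sets, several to 572 and none to 11498 that it does not list. With limma 3.58.1 (R 4.3.3), the 16 arrays were fitted together by group means, with contrasts for the diet, hydrogen and their interaction, eBayes and Benjamini-Hochberg adjustment within each contrast. An adjusted p under 0.05 was a call. All adjusted p-values come from limma, and an error is the fit's standard error unless it is named as an SD. The code was tested on simulated data. The number of arrays limits the precision.

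The members, the gene lists and the 3 motifs were chosen with earlier results of these data known. Members named follow a rule. Per complex it takes the 3 largest called rises and falls of each diet comparison. It adds catalytic, c ring and isoform members, and the 2 members of smallest p for hydrogen and interaction, and up to 4 called genes per list. Other members and regulators are named to account for calls. Replicate numbers were checked as pairs over 24 pairs of samples, whose deviations correlated at -0.129 to 0.325, with 9 over 0.1, so they were not used as pairs. A total of 25 alternatives was run, 24 of them planned, with other filters, scalings and models and each array left out in turn. The plots were made in Python 3.11.15 with matplotlib 3.10.9.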

Additional observations from a re-analysis of the deposited data

Results flagged for a closer look

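Among 184 groups of 4 arrays (46 named members in 4 groups each), 9 held an array whose gap to the nearest other array, as a share of the group's range, passed Dixon's critical value at the 95% level, which chance gives in about 1 in 20 groups. In hydrogen CDAA rats, Atp5f1b was 11.61 log2 in replicate 2, against 11.73 to 11.75 in the others, and Cox8a was 11.44 in replicate 4, against 11.36 to 11.37. In control CDAA rats, Atp5mc1 was 10.8 in replicate 1 (others 11.06 to 11.1), and in replicate 4 Ndufa13 was 9.39 (others 9.51 to 9.52) and Sdhc 10.24 (others 10.44 to 10.47). In hydrogen rats on chow, Ndufs6 was 10.6 in replicate 3 (others 10.67 to 10.68) and Uqcr10 was 11.19 in replicate 2 (others 11.24 to 11.25). In control rats on chow, Cox4i2 was 3.88 in replicate 4 (others 4.11 to 4.12) and Uqcrc2 was 10.26 in replicate 2 (others 10.33 to 10.34).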

How the results depend on the processing

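Of the single-gene results under the 25 alternatives, 5527 kept their side of the threshold, 135 lost a call and 42 gained a call. These include the hydrogen and interaction results, where no member had a call to lose. The total is therefore no measure of how often diet calls held. A change of direction was counted only where a call was involved, and there were 0 of these. Uncalled estimates that changed sign are among the 5527. In hydrogen rats 2 of 13 rises and 8 of 15 falls held in every alternative, and in control rats 9 of 23 rises and 1 of 3 falls. The 2 rises in hydrogen rats were those of Atp5if1 and Cox7a2l, so no rise of a subunit held in every alternative there. The 8 falls included that of the pseudogene Cox6c-ps1. The cause of the moves below was not tested, except that centring on tested probe sets lowers all differences by construction. With those medians centred, members called on the CDAA diet were 2 higher and 28 lower in hydrogen rats and 9 higher and 13 lower in control rats, while 23.9% of all genes were higher and 31.4% lower in hydrogen rats and 21.5% higher and 20.5% lower in control rats. The medians of complexes I to V then were -0.143, -0.201, 0.033, -0.041 and -0.025 in hydrogen rats and -0.044, -0.091, 0.083, 0.048 and 0.07 in control rats, and that of complex V in the interaction was -0.102. Repeated quantile normalization gave complex II a median of -0.04 in hydrogen rats and 0.032 in control rats, and complex III 0.194 in control rats. Array weights called 6 lower in control rats, and a fit of only the 2 groups called 7 higher in hydrogen rats. That fit gives no interaction.

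Leaving out single arrays gave 7 to 13 higher and 12 to 16 lower members in hydrogen rats (7 without hydrogen normal-diet replicate 3), and 12 to 24 higher and 2 to 4 lower in control rats (12 without control normal-diet replicate 2). Complex medians for the diet in hydrogen rats ranged from -0.061 to -0.029 (I), -0.107 to -0.091 (II), 0.103 to 0.148 (III), 0.034 to 0.073 (IV) and 0.063 to 0.084 (V). In control rats they ranged from -0.03 to 0.045 (I), -0.061 to 0.011 (II), 0.118 to 0.183 (III), 0.076 to 0.129 (IV) and 0.115 to 0.157 (V). In the interaction complex III ranged from -0.084 to -0.027, the last without hydrogen CDAA replicate 2. With the replicate number as a replicate block, 10 members were higher and 14 lower in hydrogen rats and 20 higher and 2 lower in control rats. The block changed no hydrogen or interaction call, which stayed at 0 members. The deposited values carry no probe-level signals here, so members near the filter line (Cox4i2, Cox7a1, Cox7b2, Cox8b) have no measured distance from background.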
